A study of Mus musculus with 24 samples.

Results

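The genes described here are the erythroid genes of the mouse lung: the globins, the genes of haem synthesis, the membrane and surface genes of the red cell, the regulators of red cell formation and 2 red cell enzymes. They were taken by symbol from a fixed list of 34 genes. Of these, 33 were found among the 54532 genes of the deposited table, and 1 is not analysed here. Hba-a1 was summed with Hba-a2, and Hbb-bs with Hbb-bt, since each pair shares reads, which leaves 31 gene units. The 24 bulk RNA-seq libraries were made from the whole lungs of young C57BL6/j males and fall into 4 groups of 6: hypoxia with ABT-263, hypoxia with vehicle, normoxia with ABT-263, and normoxia with vehicle, the control. All were taken on day 2. The dose of ABT-263 was 50 mg/kg/day. This compound (navitoclax) blocks the survival proteins BCL-2, BCL-XL and BCL-W and is used to remove senescent cells. The oxygen level of the hypoxia is not given in the sources used here. The labels do not number the animals, so p-values rest on library-to-library spread, part of which may be technical.

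Red cells are made in the marrow (in mice also in the spleen) from nucleated precursors under the hormone erythropoietin. Late precursors fill with haemoglobin, build the spectrin and ankyrin skeleton and the anion exchanger into their membrane, and lose their nucleus to become reticulocytes. Reticulocytes enter the blood with leftover RNA, and that RNA is lost as they mature. The lung holds much blood, so a sample of the whole organ can carry the RNA of circulating reticulocytes. In a bulk sample, fewer cells of a type and less RNA per cell cannot be told apart.

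Library totals lay between 12643484 and 17295233 expected counts, and the groups overlapped in depth. The libraries carried the markers of lung: the surfactant gene Sftpc had a median of 24550 and 25270 CPM (counts scaled to library size) in hypoxia with ABT-263 and with vehicle, and 24880 and 27190 CPM in normoxia with ABT-263 and with vehicle. Of 10 lung markers, 1 was called higher and 0 were called lower in hypoxia under vehicle. Over all genes tested, 18.9% were called higher and 16.8% lower. The 10 had a median log2 fold change of -0.17, with 3 positive. They summed to 70370 to 128500 CPM in hypoxia with vehicle and 116700 to 130700 CPM in normoxia with vehicle. Under ABT-263, 0 were called higher and 1 lower, where 21.6% and 19.4% of all genes were. Transcripts of nuclear genes not annotated as protein-coding varied widely within groups, from 1.21% to 2.14% of counts in hypoxia with vehicle and from 1.56% to 1.99% in normoxia with vehicle. Its relations with Ppox, the beta to alpha globin ratio and Alas2 are given beside those results.

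The adult globin copies show why they were summed. Coding sequences of Hba-a1 and Hba-a2, of 429 bases each, differ at 1 base, and those of Hbb-bs and Hbb-bt, of 444 bases each, differ at 1 base. The stretches around these bases are given 5′ to 3′ on the coding strand with the differing base in capitals (GRCm38, GENCODE M21), at chr11:32284313-32284373 and chr11:32297130-32297190 (plus strand) and chr7:103826665-103826722 and chr7:103812656-103812713 (minus strand), all in coding exons.
Hba-a1: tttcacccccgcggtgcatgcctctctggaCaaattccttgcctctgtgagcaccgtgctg
Hba-a2: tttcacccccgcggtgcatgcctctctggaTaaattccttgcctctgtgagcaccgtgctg
Hbb-bs: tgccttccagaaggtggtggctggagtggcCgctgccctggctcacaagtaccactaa
Hbb-bt: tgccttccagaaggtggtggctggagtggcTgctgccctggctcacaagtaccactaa
A read that misses these bases within the coding part does not separate the copies. The deposited values still split them by estimation: Hba-a1 took 60.6% ± 0.292 of alpha globin counts in hypoxia with vehicle and 57.7% ± 0.454 in normoxia with vehicle (SD, n = 6 each). These shares are a description of the authors' split, and single copies are not compared.

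Both globins rose in hypoxia. Alpha globin (Hba-a1 plus Hba-a2) had a lowest, median and highest library of 1898, 2992 and 4217 CPM in hypoxia with vehicle, against 691.5, 933.9 and 1223 CPM in normoxia with vehicle. Beta globin (Hbb-bs plus Hbb-bt) had 7646, 12320 and 14970 CPM in hypoxia with vehicle, against 1950, 2902 and 3717 CPM in normoxia with vehicle. Every hypoxia library lay above every normoxia library for both chains. The rise was 3.24-fold for alpha globin (log2 fold change 1.70, SE 0.24, adjusted p = 6.05e-06) and 4.25-fold for beta globin (2.09, SE 0.27, adjusted p = 1.67e-06). These and the later adjusted p-values come from edgeR's quasi-likelihood test with Benjamini-Hochberg adjustment over all 16933 genes tested, and a gene is called at an adjusted p under 0.05.

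Under ABT-263 the hypoxia difference of both globins was also called. Alpha globin had 2597, 3302 and 5929 CPM in hypoxia with ABT-263, against 662.6, 1395 and 1935 CPM in normoxia with ABT-263. The values of beta globin were 7628, 13050 and 24410 CPM in hypoxia with ABT-263, against 1994, 4946 and 6171 CPM in normoxia with ABT-263. Again no library of one group reached into the other. The log2 fold changes were 1.45 (SE 0.24, adjusted p = 4.09e-05) for alpha globin and 1.65 (SE 0.26, adjusted p = 2.83e-05) for beta globin.

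**Figure D1:**
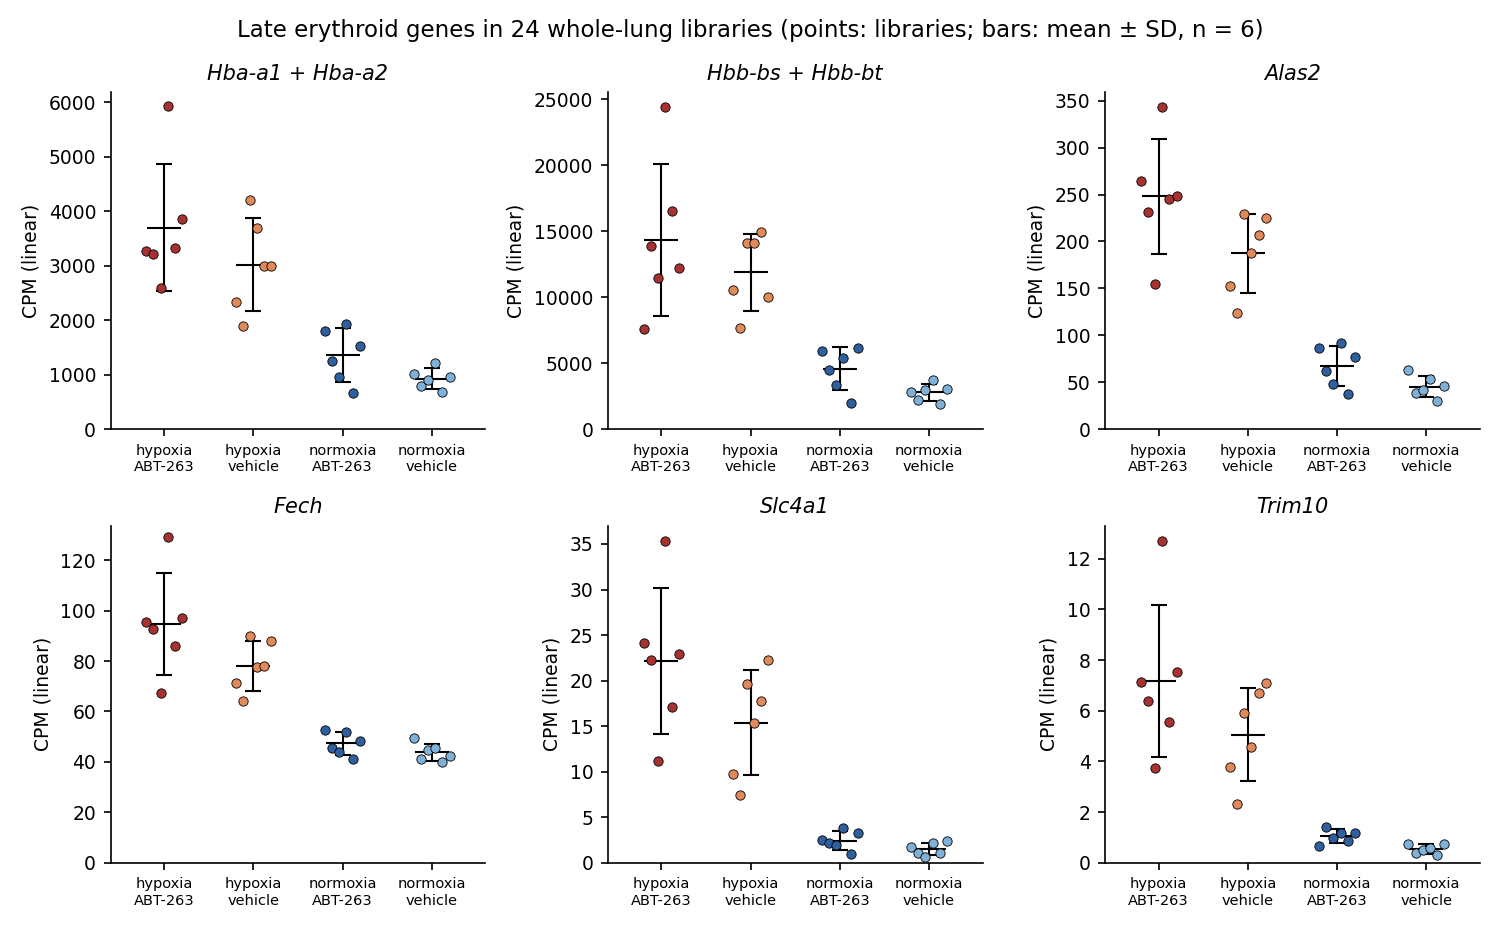
CPM on linear axes of 6 late erythroid gene units in each of the 24 libraries, by group; points are libraries and bars the mean ± SD of 6. In all panels but alpha globin every hypoxia library lies above every normoxia library; for alpha globin hypoxia with vehicle starts at 1898 CPM and normoxia with ABT-263 ends at 1935 CPM.

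Over the whole list, 23 of the 31 gene units passed the filter on low counts and 8 did not. Of the 23, 9 were called higher and 2 lower in hypoxia under vehicle, with a median log2 fold change of 0.18 over the units tested, against -0.04 over all genes. Over all genes tested, 18.9% were called higher and 16.8% lower in this comparison, so members called higher were more frequent, and members called lower less frequent, than genes in general as counts, with no test of that difference. Under ABT-263, 10 units were called higher and 3 lower, where 21.6% of all genes were called higher and 19.4% lower. The 9 units called higher under vehicle were called higher under ABT-263 too. The 2 hypoxia comparisons share no library, but they share the filter and the estimate of spread. Rhd passed the filter only through hypoxia libraries of both treatments, and Epb42 mainly through hypoxia libraries. For Rhd 9 hypoxia libraries and 0 normoxia libraries exceeded 0.66 CPM, and for Epb42 12 and 1. These 2 genes were thus tested because they were high in hypoxia, and their calls are no separate evidence of a rise.

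**Figure D2:**
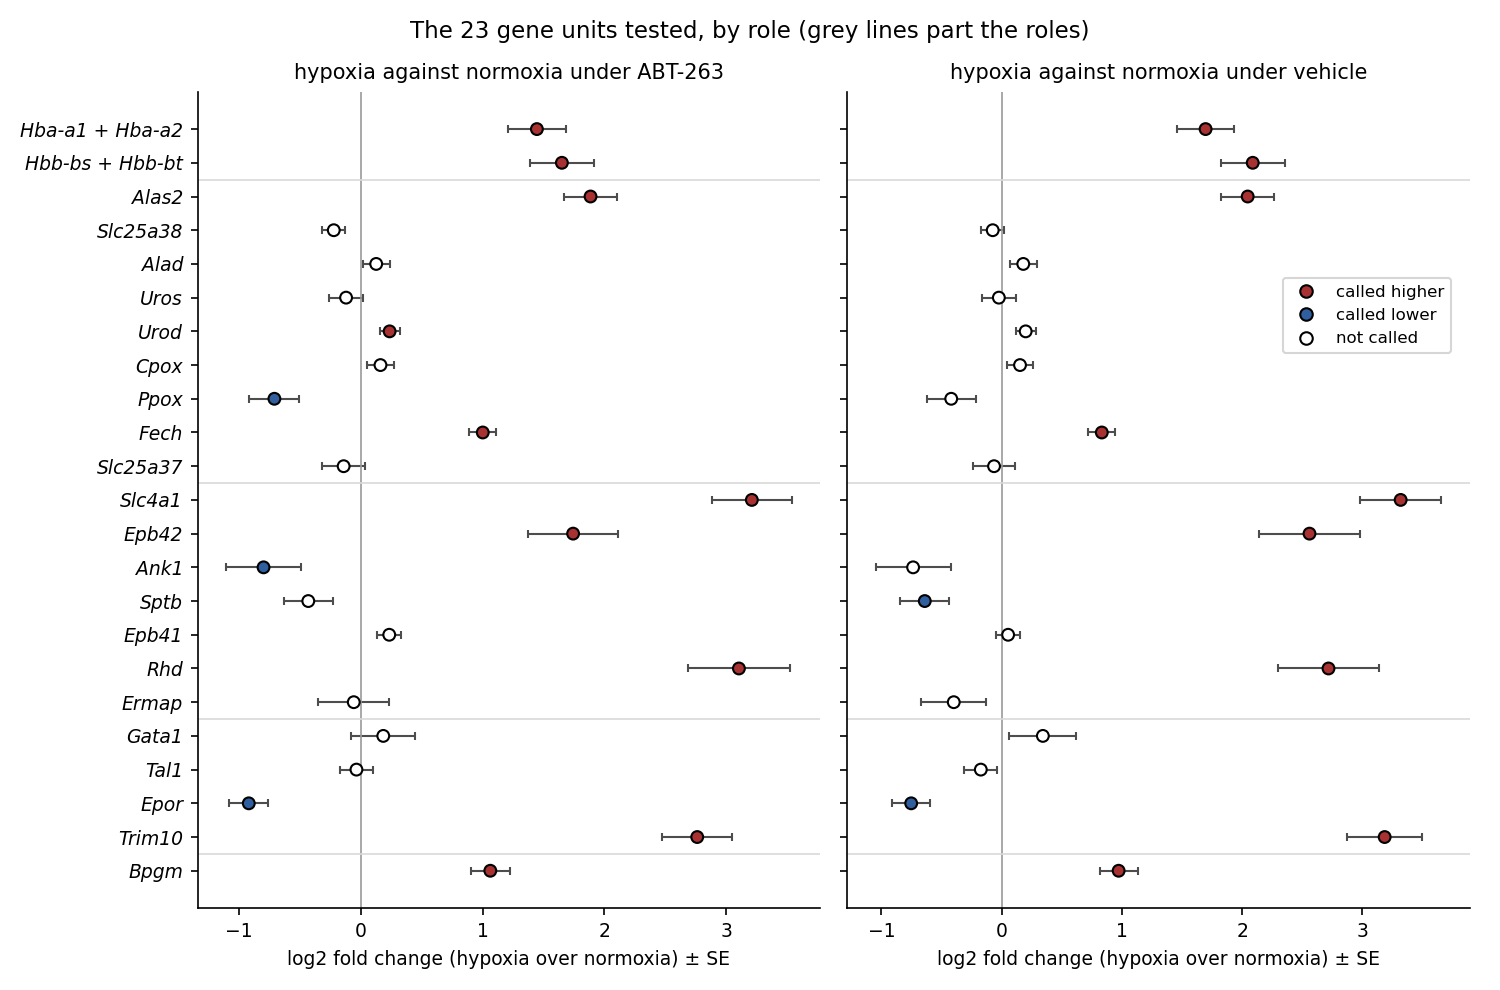
Log2 fold change of hypoxia over normoxia with its SE for the 23 gene units tested, under ABT-263 (left) and under vehicle (right), ordered by role. Coloured points passed the test. Globins, Alas2, Fech, Slc4a1, Epb42, Rhd, Trim10 and Bpgm lie to the right of 0 in both panels, and Epor to the left.

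Haem is built from glycine and succinyl-CoA in a chain of enzymes that starts and ends in the mitochondrion. Of the 9 members of this pathway, all tested, 2 rose in hypoxia under vehicle and 7 were not called. Over all genes tested 18.9% were called higher there, so this count does not set the pathway apart. Alas2, the erythroid aminolevulinate synthase that catalyses the first, rate-setting step in red cell precursors (GRCm38 chromosome X, 150547375 to 150570638, plus strand), had 124, 197 and 229 CPM in hypoxia with vehicle, against 29.8, 43.6 and 62.8 CPM in normoxia with vehicle (lowest, median and highest library). It rose 4.13-fold (log2 2.05, SE 0.22, adjusted p = 1.69e-07), with no overlap between the groups. Fech, ferrochelatase, which inserts iron in the last step (chromosome 18, 64452914 to 64490251, minus strand), had 64.0, 77.9 and 90.1 CPM in hypoxia with vehicle, against 40.0, 43.4 and 49.5 CPM in normoxia with vehicle. It rose 1.78-fold (log2 0.83, SE 0.11, adjusted p = 2.77e-06), also with no overlap.

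Under ABT-263, Alas2 had 154, 247 and 344 CPM in hypoxia, against 37.5, 69.5 and 91.4 CPM in normoxia (log2 fold change 1.89, SE 0.22, adjusted p = 5.05e-07). Fech had 67.5, 94.3 and 129 CPM in hypoxia with ABT-263, against 41.3, 46.8 and 52.7 CPM in normoxia with ABT-263 (2.003-fold, adjusted p = 2.37e-07). Both genes were separated between hypoxia and normoxia under ABT-263 as well.

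Of the enzymes between these ends of the pathway, 0 were called under vehicle, and Urod and Ppox were called under ABT-263. Urod, uroporphyrinogen decarboxylase, had 44.3, 51.3 and 58.6 CPM in hypoxia with vehicle, against 42.7, 44.5 and 48.1 CPM in normoxia with vehicle, groups that overlapped (log2 0.20, SE 0.08, adjusted p = 0.059). It was called higher under ABT-263 at log2 0.24 (SE 0.08, adjusted p = 0.0227), a call lost without normoxia ABT-263 library 2 or hypoxia ABT-263 library 1 or 6 (adjusted p 0.052, 0.0556 and 0.068), and without a filter on low counts (0.0645). The vehicle difference passed when hypoxia vehicle library 2 or 5 was left out (adjusted p = 0.0493 and 0.0223), or hypoxia ABT-263 library 2 or 4, which share the estimate of spread (0.0453 and 0.0461). Alad, aminolevulinate dehydratase, Cpox, coproporphyrinogen oxidase, and Uros, uroporphyrinogen synthase, had log2 values of 0.18, 0.15 and -0.02 under vehicle and were not called. Alad passed without hypoxia vehicle library 5 (log2 0.26, adjusted p = 0.0468).

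Ppox, protoporphyrinogen oxidase, was lower in hypoxia under ABT-263 (log2 -0.71, SE 0.20, adjusted p = 0.0084). Its libraries ran from 29.6 to 57.6 CPM in hypoxia with ABT-263 and from 42.9 to 86.2 CPM in normoxia with ABT-263, with overlap. Under vehicle it was not called (log2 -0.42, adjusted p = 0.114), but passed when hypoxia vehicle library 5 was left out (log2 -0.55, adjusted p = 0.0369). Within groups, Ppox followed the share of nuclear noncoding transcripts closely (Pearson r = 0.963, Spearman rho = 0.953, 24 libraries centred on their group means, permutation p = 1e-05 each, the smallest that 100000 permutations can give). That share had a median of 1.61% in hypoxia with ABT-263 and 2.09% in normoxia with ABT-263, and its part in the Ppox difference was not tested. The main component of variation within groups, a principal component over all genes, correlated with Ppox at 0.984, Slc25a37 at 0.869, Alad at -0.767 and Urod at -0.933, as a description over 24 libraries. Its part in the values of these genes was not tested. Ppox overlaps B4galt3 on the opposite strand, and the strand setting of the counting is not given in the sources used here, so reads of the pair cannot be told apart. The same limit holds for all 8 members that overlap a gene on the opposite strand, among them Alas2 (Apex2 and Mir3620), Uros (Bccip) and Cpox (Gpr15).

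The transporters of the pathway were not called by edgeR with TMM scaling. Slc25a38, the mitochondrial glycine importer, had log2 -0.07 under vehicle and -0.22 under ABT-263 (adjusted p = 0.0634). Leaving out normoxia ABT-263 library 4 or hypoxia ABT-263 library 2 or 3 brought the ABT-263 value under the threshold (adjusted p = 0.029, 0.0342 and 0.0114), as did DESeq2 (0.0433), limma-voom (0.0499), size factors by the DESeq2 method in edgeR (0.0499) and a covariate for the main within-group component (0.0126), so this call depends on the tool. Slc25a37, mitoferrin, which brings iron into the mitochondrion, had log2 -0.06 under vehicle and -0.14 under ABT-263.

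The membrane group had 11 members, of which 7 were tested, 3 rose and 1 fell in hypoxia under vehicle. The shares over all genes tested were 18.9% higher and 16.8% lower. Slc4a1, the chloride-bicarbonate anion exchanger that is the most abundant protein of the red cell membrane (chromosome 11, 102348824 to 102366203, minus strand), had 7.47, 16.6 and 22.3 CPM in hypoxia with vehicle, against 0.645, 1.44 and 2.40 CPM in normoxia with vehicle. It rose 9.98-fold (log2 3.32, SE 0.34, adjusted p = 9.51e-08). Under ABT-263 it had 11.2, 22.6 and 35.3 CPM in hypoxia, against 0.926, 2.29 and 3.81 CPM in normoxia (log2 3.21, SE 0.33, adjusted p = 9.76e-08). The hypoxia and normoxia libraries did not overlap under either treatment.

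Epb42, which ties the anion exchanger to ankyrin, and Rhd, the mouse Rh blood group antigen, were scarce. Rhd passed the filter only through hypoxia libraries and Epb42 mainly through them. Their p-values and the separation of their groups are therefore given as a description. Epb42 had 0.972, 1.42 and 2.09 CPM in hypoxia with vehicle, against 0, 0.239 and 0.452 CPM in normoxia with vehicle (log2 2.56, SE 0.42, adjusted p = 3.53e-05). Rhd had 0.599, 0.799 and 1.27 CPM in hypoxia with vehicle, against 0.0559, 0.136 and 0.194 CPM in normoxia with vehicle (log2 2.72, SE 0.42, adjusted p = 1.99e-05). Under ABT-263 their log2 fold changes were 1.74 (SE 0.37, adjusted p = 0.000617) for Epb42 and 3.10 (SE 0.42, adjusted p = 3.74e-06) for Rhd, and hypoxia libraries lay above normoxia libraries for both genes under both treatments.

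The skeleton genes did not follow the anion exchanger. Sptb, beta spectrin, fell under vehicle, with 2.40, 2.92 and 4.42 CPM in hypoxia against 2.80, 5.17 and 6.07 CPM in normoxia (log2 -0.64, SE 0.20, adjusted p = 0.0171). The groups overlapped, and under ABT-263 Sptb was not called (log2 -0.43, adjusted p = 0.0921), although it passed without normoxia ABT-263 library 1 (log2 -0.52, adjusted p = 0.0425). Ank1, ankyrin, had 3.87, 6.07 and 8.997 CPM in hypoxia with ABT-263, against 5.71, 11.1 and 13.6 CPM in normoxia with ABT-263 (log2 -0.80, SE 0.31, adjusted p = 0.0419). That call was lost when any of 9 libraries was left out (normoxia ABT-263 libraries 2, 3, 4 and 6 and hypoxia ABT-263 libraries 1, 2, 3, 5 and 6, adjusted p 0.0541 to 0.0968). Under vehicle Ank1 had log2 -0.74 (adjusted p = 0.0676), and without normoxia vehicle library 2, its lowest at 1.62 CPM, log2 -0.96 (adjusted p = 0.0016). Both genes are used outside the red cell as well, and both overlap other genes on the opposite strand (Plekhg3 for Sptb).

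Epb41, which joins spectrin to actin, ran from 90.6 to 125 CPM in hypoxia with vehicle and from 93.3 to 109 CPM in normoxia with vehicle and was not called (log2 0.05). Under ABT-263 its log2 value was 0.24 (adjusted p = 0.0548), which passed without any one of normoxia ABT-263 library 4, hypoxia vehicle library 3, or hypoxia ABT-263 libraries 3, 5 and 6 (adjusted p 0.0198 to 0.0467). Ermap, an erythroblast membrane protein, stayed below 1.13 CPM in every library and was not called (log2 -0.40 under vehicle and -0.06 under ABT-263).

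Among regulators, 7 were listed and 4 tested. Trim10, a RING finger protein linked to terminal red cell differentiation in mouse cells (chromosome 17, 36869574 to 36877833, plus strand), had 2.32, 5.25 and 7.09 CPM in hypoxia with vehicle, against 0.299, 0.553 and 0.756 CPM in normoxia with vehicle. It rose 9.10-fold (log2 3.19, SE 0.31, adjusted p = 3.66e-08). Under ABT-263 it had 3.75, 6.76 and 12.7 CPM in hypoxia, against 0.664, 1.09 and 1.42 CPM in normoxia (log2 2.76, SE 0.29, adjusted p = 9.87e-08). Groups did not overlap under either treatment.

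Epor, the erythropoietin receptor, moved the other way. It had 3.27, 3.44 and 4.21 CPM in hypoxia with vehicle, against 5.04, 6.13 and 7.11 CPM in normoxia with vehicle, so every hypoxia library was below every normoxia library. It fell to 0.594 of the normoxia level (log2 -0.75, SE 0.16, adjusted p = 0.000624). Under ABT-263 it had 2.34, 3.24 and 4.38 CPM in hypoxia, against 4.08, 6.12 and 7.45 CPM in normoxia, where the groups overlapped (log2 -0.92, SE 0.16, adjusted p = 9.1e-05). Epor is made by early precursors, and endothelial and other cells also express it.

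The transcription factors at the head of the programme were not called. Gata1 had 0.523, 1.13 and 1.88 CPM in hypoxia with vehicle, against 0.673, 0.845 and 1.29 CPM in normoxia with vehicle (log2 0.34, SE 0.28, adjusted p = 0.35). Tal1 had 18.2, 21.2 and 31.8 CPM in hypoxia with vehicle, against 20.7, 23.8 and 31.3 CPM in normoxia with vehicle (log2 -0.17, SE 0.14, adjusted p = 0.342). The hypoxia and normoxia libraries overlapped for both, under ABT-263 too (log2 0.19 for Gata1 and -0.03 for Tal1). Gata1 is also used by mast cells, eosinophils and megakaryocytes, and Tal1 by endothelium. Mast cell and basophil markers summed to 3.43 to 6.14 CPM in hypoxia with vehicle and 3.01 to 5.59 CPM in normoxia with vehicle, and 0 of the 3 tested of 7 were called.

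**Figure D3:**
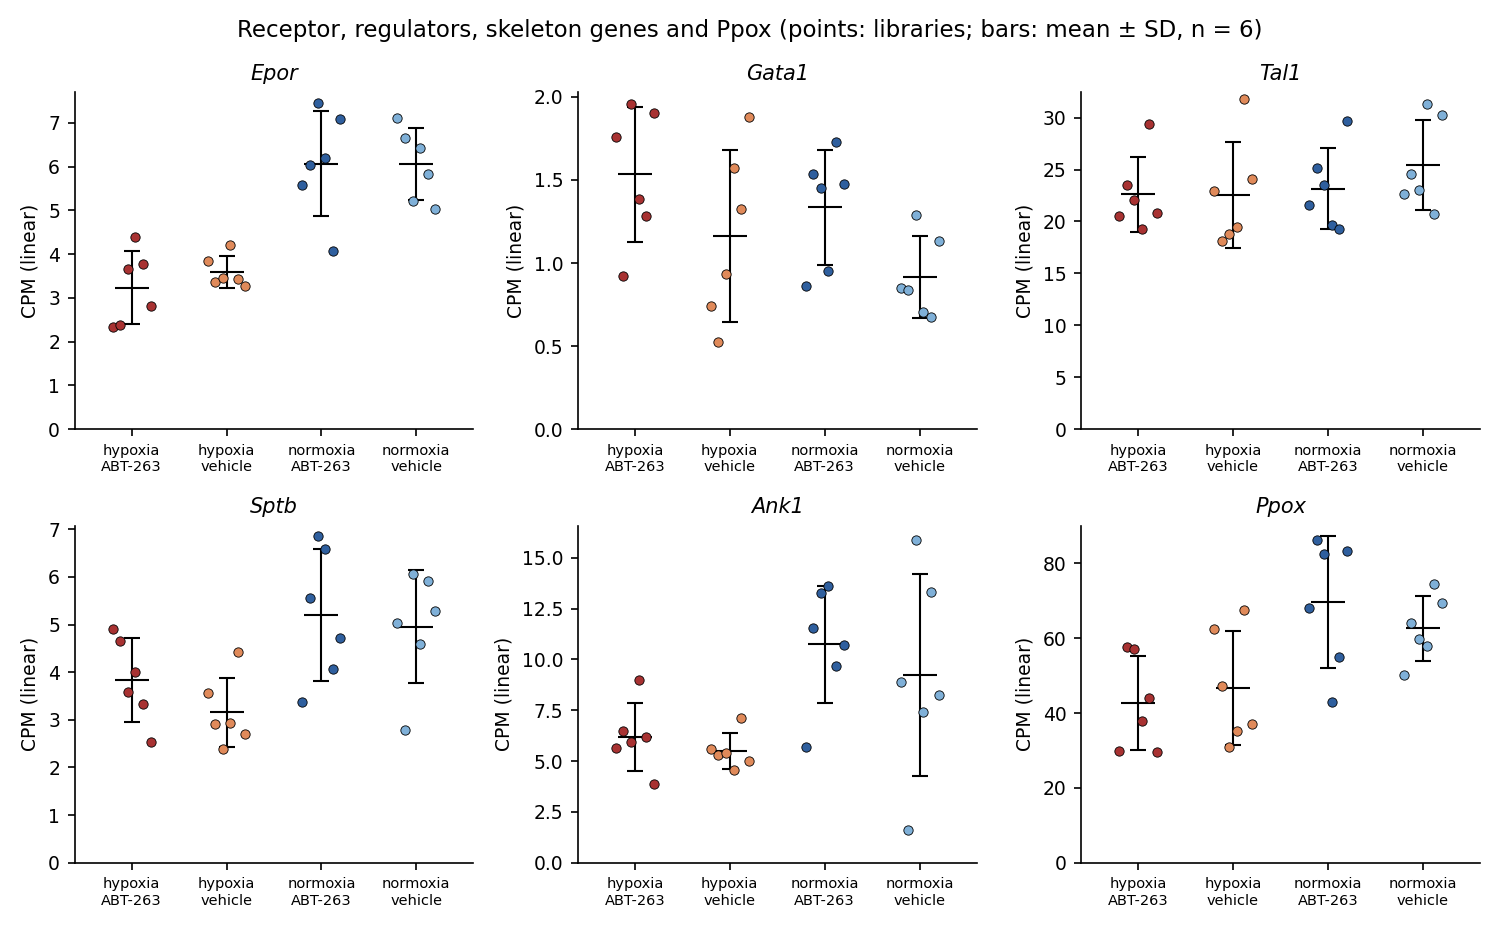
CPM on linear axes of Epor, Gata1, Tal1, Sptb, Ank1 and Ppox in each of the 24 libraries, by group; points are libraries and bars the mean ± SD of 6. Epor ends at 4.21 CPM in hypoxia with vehicle and starts at 5.04 CPM in normoxia with vehicle, while the other 5 genes overlap.

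Of the red cell enzymes, Bpgm, bisphosphoglycerate mutase, which makes the metabolite that lowers the oxygen affinity of haemoglobin (chromosome 6, 34476207 to 34505613, plus strand), had 95.1, 129 and 169 CPM in hypoxia with vehicle, against 49.9, 67.0 and 74.8 CPM in normoxia with vehicle. It rose 1.96-fold (log2 0.97, SE 0.16, adjusted p = 3.94e-05) and 2.09-fold under ABT-263 (log2 1.06, SE 0.16, adjusted p = 1.4e-05). No library overlapped in either comparison. Car1, a red cell carbonic anhydrase, was under the filter.

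The 8 units under the filter were Rhag, Kel, Cldn13, Tspo2, Klf1, Hemgn, Trim58 and Car1, with at most 24 counts in a library. Rhag, an ammonia channel of the Rh complex, had 26 counts over 6 libraries in hypoxia with vehicle and 3 in normoxia with vehicle. Tspo2, an erythroid translocator protein, had 35 counts in hypoxia with vehicle and 4 in normoxia with vehicle, and Hemgn, an erythroid nuclear protein, 33 and 9. Cldn13, a claudin of mouse erythroid cells, had 24 counts in hypoxia with vehicle and 1 in normoxia with vehicle. Kel, the Kell blood group peptidase, had 36 counts in hypoxia with vehicle and 10 in normoxia with vehicle, and 68 and 7 with ABT-263.

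With no filter on low counts, Rhag, Kel, Cldn13, Tspo2 and Hemgn were called higher in hypoxia under both treatments, with log2 values under vehicle from 1.88 for Kel (SE 0.59, adjusted p = 0.0232) to 3.90 for Cldn13 (SE 1.01, adjusted p = 0.00527). That fit called 14 of 31 units higher and 2 lower under vehicle, where 8.7% of 33580 genes were called higher and 6.49% lower. Under ABT-263 it called 14 higher and 2 lower, where 9.64% of genes were called higher and 8.04% lower. Klf1, a transcription factor that drives adult beta globin, was at 15 counts in hypoxia with vehicle and 22 in normoxia with vehicle and was not called (log2 -0.43, adjusted p = 0.634). Trim58, a ligase needed for loss of the nucleus in mouse erythroblasts, had 7 counts in hypoxia with vehicle and 2 in normoxia with vehicle, and Car1 had 12 and 4, and neither was called. Counts this low limit what can be seen: a count of 0 allows up to 3.

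**Figure D4:**
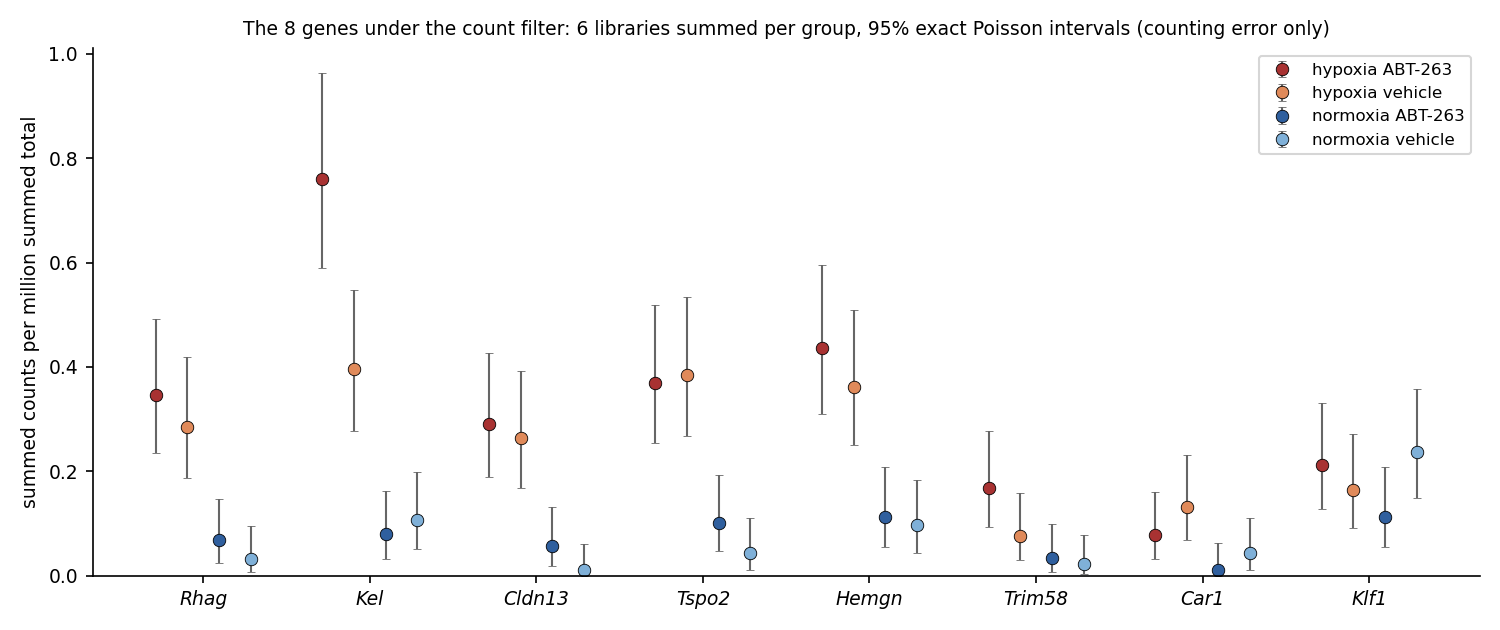
Counts summed over the 6 libraries of a group scaled to their summed library size (CPM without TMM scaling), for the 8 genes under the filter, with 95% exact Poisson intervals that cover counting error only. Rhag, Kel, Cldn13, Tspo2 and Hemgn have higher sums in both hypoxia groups, and Klf1 does not under vehicle, with 0.165 in hypoxia with vehicle and 0.237 in normoxia with vehicle.

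On a scale per kilobase of exon the members differed widely. The length is the union of all annotated exons of a gene, used in the lung or not, so genes are compared only roughly. The globin copies are left out, since reads do not separate them. In hypoxia with vehicle Alas2 averaged 78.0 ± 17.4 CPM per kilobase and Bpgm 35.5 ± 7.03 (SD, n = 6 each). In normoxia with vehicle Alas2 averaged 18.9 ± 4.79 and Bpgm 18.1 ± 2.39 CPM per kilobase. On this scale Alas2 and Bpgm stood at about the same level in normoxia with vehicle, within their spread. Slc4a1 averaged 3.14 ± 1.18 CPM per kilobase in hypoxia with vehicle and 0.312 ± 0.138 in normoxia with vehicle, and Urod, an enzyme of all cells, 17.4 ± 0.762 in normoxia with vehicle.

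Haemoglobin transcripts together took 0.934% to 1.94% of all counts in hypoxia with vehicle (mean 1.47% ± 0.360) and 0.275% to 0.502% in normoxia with vehicle (0.385% ± 0.0801, SD, n = 6 each). The exact two-sided permutation test gave p = 0.00217, the smallest it can give with 6 libraries against 6, and 0.00693 after adjustment for the 16 such tests made. With ABT-263, haemoglobin took 1.74% ± 0.589 in hypoxia and 0.6001% ± 0.214 in normoxia (adjusted exact permutation p = 0.00693). These shares hold the same counts as the globin rows above and are no separate evidence.

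Ratios within the list show where genes moved unequally. Alas2 counts per 1000 haemoglobin counts averaged 12.8 ± 2.36 in hypoxia with vehicle and 12.2 ± 2.12 in normoxia with vehicle (adjusted exact permutation p = 0.698, n = 6 each), so a difference was not detected. Slc4a1 counts per 1000 haemoglobin counts averaged 1.03 ± 0.358 in hypoxia with vehicle and 0.407 ± 0.139 in normoxia with vehicle, a log2 difference of 1.38 (adjusted exact permutation p = 0.00693). Under ABT-263 the Slc4a1 ratio was 1.29 ± 0.514 in hypoxia and 0.405 ± 0.0752 in normoxia, a log2 difference of 1.61 (adjusted exact permutation p = 0.00693). Every hypoxia library lay above every normoxia library of the same treatment.

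Alpha and beta globin rose unequally under vehicle. Beta over alpha counts were at least 3.35 in hypoxia with vehicle (mean 4.01 ± 0.657) and at most 3.24 in normoxia with vehicle (2.99 ± 0.1999, SD, n = 6 each). On the log2 scale the alpha to beta ratio differed by -0.41 (adjusted exact permutation p = 0.00693), with no overlap. Under ABT-263 the beta over alpha ratio was 3.88 ± 0.960 in hypoxia and 3.37 ± 0.438 in normoxia, which did not pass (adjusted exact permutation p = 0.57), and whether the 2 treatments differ was not tested.

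The beta to alpha ratio also moved with the share of nuclear noncoding transcripts within groups (Pearson r = 0.796, Spearman rho = 0.785, 24 libraries centred on group means, permutation p = 0.0001 each, adjusted over 8 relations 0.000133). Leaving out the 2 libraries with the most extreme share left r at 0.787. Within groups r was 0.778, 0.962 and 0.907 in hypoxia with ABT-263, hypoxia with vehicle and normoxia with ABT-263, and -0.005 in normoxia with vehicle. The share had a median of 1.52% in hypoxia with vehicle and 1.86% in normoxia with vehicle, and its part in the ratio was not tested.

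**Figure D5:**
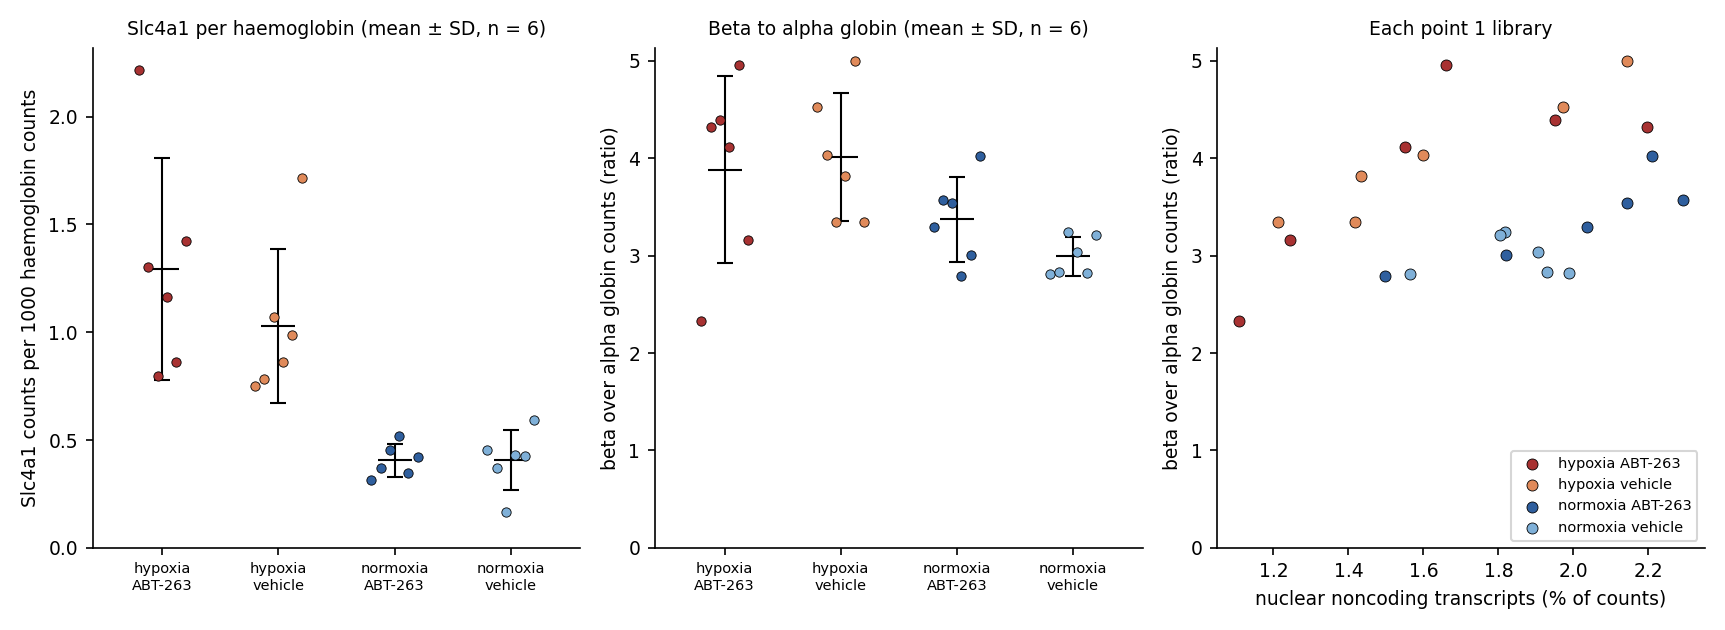
Slc4a1 counts per 1000 haemoglobin counts (left) and beta over alpha globin counts (middle) by group, with mean ± SD of 6 libraries, and beta over alpha counts against the percent of counts from nuclear noncoding transcripts (right), 1 point per library. The Slc4a1 ratio is 0.753 or more in every hypoxia library and 0.593 or less in every normoxia library.

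The genes that rose also varied together between libraries of 1 group. Centred on group means over 24 libraries, Alas2 followed alpha globin (Pearson r = 0.914, Spearman rho = 0.914), Bpgm (0.910 and 0.923), Fech (0.863 and 0.917), Slc4a1 (0.845 and 0.891) and beta globin (0.739 and 0.715). The permutation p was 1e-05 to 0.00031 for Pearson's r and 1e-05 to 0.00063 for Spearman's rho, and at most 0.000354 and 0.00072 adjusted over 8 relations. These 5 units have the highest r with Alas2 among the other members tested, and the adjustment does not cover a choice among all members. Leaving out the 2 libraries with the most extreme Alas2 level gave r of 0.887, 0.891, 0.847, 0.773 and 0.673 in the same order. With the share of nuclear noncoding transcripts Alas2 had r = -0.347 (permutation p = 0.119, adjusted 0.119) and rho = -0.463 (permutation p = 0.033, adjusted 0.033). Without the 2 most extreme libraries r was -0.367, and within groups it ran from -0.795 in normoxia with vehicle to -0.158 in normoxia with ABT-263. The part of this share in the Alas2 values was not tested. Among the relations between Alas2 and these 5 units, within single groups r ran from 0.455 (beta globin, hypoxia with ABT-263) to 0.998 (alpha globin, normoxia with ABT-263).

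Single libraries stood at the ends for most of these genes. Hypoxia ABT-263 library 4 was the highest of its group for all 9 units called higher in both comparisons, and hypoxia ABT-263 library 3 the lowest for 8 of 9. Hypoxia vehicle library 2 was the lowest of its group for 8 of 9. Among normoxia libraries, ABT-263 library 5 and vehicle library 5 were each the lowest for 7 of 9. As a description over the same 24 libraries, r with Alas2 among the other members ran from -0.41 for Ppox, through about 0 for Ank1, Gata1 and Sptb, to 0.389 for Urod and 0.439 for Epb41. Among the rest of the 9, Epb42 had 0.517, Rhd 0.559 and Trim10 0.693.

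Outside the list, the genes most like Alas2 in this centred pattern included Lepr (r = 0.808), Fam220a (0.799), Ptprg (0.766), Fibin (0.765), Tmem100 (0.755), Gsg1l (0.754), Tmem132c (0.744) and Rec114 (0.744). They did not share a direction in hypoxia: Rec114 rose under vehicle (log2 1.56), and Lepr and Tmem100 fell (log2 -0.95 and -0.87). The likeness is between libraries of 1 group and is given without a test.

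Upstream sequence was read for 27 members (32 windows of 250 bases before the RefSeq start, GRCm38.p6). It was searched on both strands for the GATA motif, GATA preceded by A or T and followed by A or G. GATA factors, among them Gata1, bind it. Of the 11 genes behind the 9 units called higher in both comparisons, 9 had a window, of which Alas2, Epb42, Hba-a1, Hba-a2, Hbb-bs, Rhd and Trim10 held a match and Bpgm and Hbb-bt did not. A match stood in 56.2% of all member windows and in 26.5% of 32851 windows of all genes. The CACCC box, spelled CCNCACCC, stood in 15.6% of member windows and 14.9% of all, and the core ACGTG or GCGTG of the hypoxia response element in 31.2% and 38.6%. A match is a description of the letters, not a site. The upstream windows of 4 of these genes follow, chosen after the values were seen. These genes rose and all 4 windows hold a match, while Bpgm, which rose and held no match, is not printed. The windows end where the GENCODE gene starts, which leaves out the 2 CACCC matches of the Alas2 window. They run 5′ to 3′ on the plus strand, with the GATA match in capitals: chr11:32283422-32283510, chrX:150547167-150547374, chr4:134864286-134864535 and chr17:36869324-36869573.
Hba-a1: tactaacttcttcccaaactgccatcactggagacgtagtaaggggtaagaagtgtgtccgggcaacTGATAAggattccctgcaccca
Alas2: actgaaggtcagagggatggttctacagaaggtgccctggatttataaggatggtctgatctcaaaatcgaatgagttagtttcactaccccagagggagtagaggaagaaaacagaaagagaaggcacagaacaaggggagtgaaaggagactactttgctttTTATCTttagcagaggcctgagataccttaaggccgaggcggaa
Rhd: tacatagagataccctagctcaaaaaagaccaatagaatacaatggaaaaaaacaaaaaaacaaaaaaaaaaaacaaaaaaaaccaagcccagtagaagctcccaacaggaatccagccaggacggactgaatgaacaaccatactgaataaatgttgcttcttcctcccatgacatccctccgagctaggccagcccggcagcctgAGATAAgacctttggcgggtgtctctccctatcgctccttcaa
Trim10: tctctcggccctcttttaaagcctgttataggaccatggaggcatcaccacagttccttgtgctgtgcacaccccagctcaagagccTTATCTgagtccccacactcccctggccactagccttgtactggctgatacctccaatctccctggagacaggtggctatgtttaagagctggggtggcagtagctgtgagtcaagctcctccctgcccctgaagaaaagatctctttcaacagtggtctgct

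The other genes of red cell formation are counted by role. Over all genes tested, 18.9% were called higher and 16.8% lower in hypoxia under vehicle, and 21.6% and 19.4% under ABT-263. The list counts below were not tested against these shares, and several are near them. Of 13 other membrane genes, 11 were tested, and 2 were called higher and 3 lower in hypoxia under vehicle. The lower genes were Tmcc2, Dmtn and Kcnn4 (log2 -0.69, -0.47 and -0.56).

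Of 17 other genes of haem synthesis, transport and breakdown, all tested, 7 rose and 0 fell under vehicle. The biliverdin reductases Blvra and Blvrb rose (log2 0.70 and 0.65), as did Tmem14c, a porphyrin importer of the mitochondrion (0.59). Alas1, the aminolevulinate synthase of other tissues, was not called under vehicle (adjusted p = 0.587), with a median of 309.7 CPM in hypoxia and 328 CPM in normoxia. Hmox1, haem oxygenase, was also not called (adjusted p = 0.764). Under ABT-263, 9 of the 17 rose and 2 fell, one of them Alas1 (log2 -0.69, SE 0.17, adjusted p = 0.00216).

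Of 16 reticulocyte and red cell enzyme genes, all tested, 9 rose and 1 fell under vehicle (Cat, catalase, log2 -0.68). Riok3, a kinase that takes part in the maturation of mouse erythroblasts, rose (log2 0.57, SE 0.06, adjusted p = 1.12e-07), and so did Gpx1, a glutathione peroxidase (log2 0.92, SE 0.11, adjusted p = 8.62e-07). Of 14 other erythroid transcription factors, 13 were tested, 0 rose and 3 fell under vehicle (Lmo2, Gata2 and Myb, log2 -0.59, -0.58 and -0.38). Under ABT-263, 0 of these 13 rose and 7 fell, with a median log2 value of -0.34, where 19.4% of all genes were called lower. Nfe2 was not called under vehicle (adjusted p = 0.439). The lists were not tested against each other.

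Of the iron supply genes, 10 listed and tested, 2 rose and 1 fell under vehicle. Tfrc, the transferrin receptor, had 161.6, 180.2 and 239 CPM in hypoxia with vehicle, against 143, 153 and 171 CPM in normoxia with vehicle (log2 0.29, SE 0.10, adjusted p = 0.0265). In the erythropoietin signal list, 8 of 10 were tested, and Socs3 and Socs2 rose (log2 1.18 and 0.26) while Kit and Stat5b fell (log2 -0.95 and -0.34). Epo itself was near 0 in these lungs, with 3 counts over 2 libraries in hypoxia with vehicle and 0 counts in the other 3 groups. Of 9 embryonic and minor globins 4 were tested, with 1 called higher and 1 lower under vehicle and a median log2 value of -0.24. The list also holds Mb, Ngb and Cygb. Its summed level had a median of 98.5 CPM in hypoxia with vehicle and 154.5 CPM in normoxia with vehicle, and the groups overlapped. In hypoxia with vehicle Hba-x, Hbb-bh1, Hbb-y, Hbq1a and Hbq1b had only 0, 4, 11, 46 and 94 counts over 6 libraries. This sum therefore lies mostly in Mb, Ngb and Cygb. Ngb, neuroglobin, fell (log2 -0.76, SE 0.26, adjusted p = 0.0224), and Hbq1b rose (94 counts in hypoxia with vehicle and 4 in normoxia with vehicle, log2 4.40, SE 0.51, adjusted p = 4.28e-07). Hbq1b shares reads with its copy Hbq1a, which had 46 counts in hypoxia with vehicle and 19 in normoxia with vehicle. This pair was not summed, so the Hbq1b fold change depends on how the shared reads were split. The embryonic Hbb-y stayed at 11 counts in hypoxia with vehicle and 21 in normoxia with vehicle.

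Markers of other cells were measured in the same libraries. Their counts stand beside the same shares over all genes (18.9% higher and 16.8% lower under vehicle, 21.6% and 19.4% under ABT-263). All 7 cell division genes rose under vehicle, and their summed level was 78.0 to 119 CPM in hypoxia with vehicle and 23.7 to 48.3 CPM in normoxia with vehicle. Platelet and megakaryocyte markers had 3 of 13 higher and summed to 140 to 228 CPM in hypoxia with vehicle and 114 to 156 CPM in normoxia with vehicle. Under ABT-263 the same list had 1 higher and 5 lower, with a median log2 value of -0.32, and summed to 173 to 278 CPM in hypoxia and 170 to 292 CPM in normoxia. Of 8 marrow granulocyte precursor markers, 5 were tested and 2 rose, Ltf and Lcn2, and the list summed to 272 to 737 CPM in hypoxia with vehicle and 59.4 to 139 CPM in normoxia with vehicle. Its defining early members Elane, Mpo and Ctsg had at most 4, 9 and 6 counts over any group of 6 libraries. T cell markers had 4 of 6 lower, B cell markers 0 of 6 called, neutrophil markers 1 higher and 2 lower of 7 tested, and markers of haem-handling macrophages 1 of 6 higher (Vsig4). The part of these cells in the erythroid values was not tested.

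ABT-263 called no member at either oxygen level. In normoxia 0 of 23 units passed, where 0.0413% of all genes did. At an unadjusted p under 0.05 there were 5, where 1152 of all 16933 genes were, all higher with ABT-263: alpha and beta globin, Alas2, Epb42 and Trim10. Alpha globin ran from 662.6 to 1935 CPM in normoxia with ABT-263 and from 691.5 to 1223 CPM in normoxia with vehicle (log2 0.54, SE 0.23, adjusted p = 0.656). Beta globin ran from 1994 to 6171 CPM and from 1950 to 3717 CPM in the same order (log2 0.71, SE 0.26, adjusted p = 0.533), and Alas2 had log2 0.56 (SE 0.21, adjusted p = 0.579). All 31 units overlapped between the groups; over all genes only 0.213% lay wholly above and 0.278% wholly below, so this count says little about the members.

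The haemoglobin share differed by 0.215 percentage points in normoxia (0.6001% ± 0.214 with ABT-263 and 0.385% ± 0.0801 with vehicle, adjusted exact permutation p = 0.139, n = 6 each). Without normoxia ABT-263 library 5, the lowest at 0.261%, the difference was 0.283 points with an adjusted exact permutation p of 0.0115. In hypoxia the shares were 1.74% ± 0.589 with ABT-263 and 1.47% ± 0.360 with vehicle (adjusted exact permutation p = 0.57, n = 6 each).

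In hypoxia 0 of 23 units passed, as 0% of all genes did by edgeR (543 genes had an unadjusted p under 0.05), and 2 units had an unadjusted p under 0.05: Fech (log2 0.28, SE 0.11) and Epb41 (log2 0.22, SE 0.10). Averaged over both oxygen levels 0 of 23 units passed, where 0.165% of all genes did, and 8 had an unadjusted p under 0.05, where 976 of 16933 genes had, all higher with ABT-263. The smallest were Trim10 (log2 0.71, SE 0.22, edgeR adjusted p = 0.31) and Alas2 (log2 0.48, SE 0.15, edgeR adjusted p = 0.343). DESeq2 and limma-voom also called 0 members in each of these comparisons. Of the 23 units, 19 had a positive averaged value, where 53% of all genes had, with a median log2 value of 0.18 against 0.01 over all genes. Several of these units vary together between libraries, so such counts of units are not separate observations. In the other lists, Mfsd2b, the sphingosine phosphate exporter of red cells and platelets, was higher with ABT-263 in normoxia (log2 0.62, SE 0.12, adjusted p = 0.0411), as were the platelet genes Gp1bb and Gp9 (log2 1.87 and 1.25). Platelet markers summed to 170 to 292 CPM in normoxia with ABT-263 and 114 to 156 CPM in normoxia with vehicle. Averaged over both oxygen levels, 4 of 13 platelet markers were called higher and 4 of 6 B cell markers (Cd79a, Fcmr, Bank1 and Cd79b) lower with ABT-263, with median log2 values of 0.55 and -0.66. B cell markers summed to 57.7 to 159.4 CPM in hypoxia with ABT-263 and 159.1 to 259.4 CPM in hypoxia with vehicle, and to 119 to 184 CPM in normoxia with ABT-263 and 162 to 259.1 CPM in normoxia with vehicle. The part of these cells in the erythroid values was not tested.

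The interaction asks whether the hypoxia difference itself changed with ABT-263. By edgeR it called 0 of 23 units and 0% of all genes, and 0 units had an unadjusted p under 0.05. The largest in size was Epb42 (log2 -0.82, SE 0.57, adjusted p = 0.991). For Alas2 the interaction was log2 -0.16 (SE 0.30), for alpha globin -0.25 (SE 0.33) and for beta globin -0.44 (SE 0.36).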

How the data were processed

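Mouse lung RNA was sequenced as 24 stranded mRNA libraries, per the labels' protocols, which do not say that each came from a separate animal. The authors deposited expected counts per gene for each library, and the submitters' processing notes name Trimmomatic, STAR, RSEM and the GRCm38 genome, without versions. These sources do not give the annotation release or the strand setting. Of the values, 92% are whole numbers (tolerance 1e-09), and all were rounded. Groups were taken from the labels.

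Counts were tested with edgeR 4.0.16 (R 4.3.3; quasi-likelihood, robust, TMM, filterByExpr with a minimum count of 10, 1 mean per group, 20 residual degrees of freedom, Benjamini-Hochberg over 16933 genes) in 6 contrasts that share libraries. The 4 ratio and share measures were tested by exact two-sided permutation (scipy 1.17.1), and within-group relations by 100000 permutations within groups. Poisson intervals (95%) and the floor of 3 counts cover counting error only. The script was tested on simulated data. Alternatives were DESeq2 1.42.0, limma-voom (limma 3.58.1), other scaling, filters and samples, and each library left out.

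The members and gene lists were chosen with earlier results of these data known. Genes named in full were the globins, Alas2, Slc4a1 and, per larger role group, the 2 others with the smallest p; per other list the 2 with the smallest p and a few preset genes; and the 10 most like Alas2. Other members are named to account for them, and further genes called in a list were named after their values were seen. One listed gene, and some genes of the other lists and of the 10 most like Alas2, are not reported here.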

Additional observations from a re-analysis of the deposited data

Results flagged for a closer look

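Within groups of 6 libraries, 140 sets of values (31 gene units and the share and ratio measures) were searched for a library far from the other 5, and 5 were found, all in genes under the filter on low counts. For continuous values chance alone marks about 1 in 20 such sets (5%), and 3.57% were marked here. That rate does not hold for sets in which most libraries have 0 counts. Kel was at 1.846 CPM in hypoxia ABT-263 library 4, where the other 5 ran from 0.326 to 0.845 CPM, and the same library was the highest of its group for all 9 units that rose in both hypoxia comparisons. Kel was at 0.3646 CPM in normoxia vehicle library 1, with the others at 0 to 0.126 CPM. Cldn13 was at 0.2214 CPM in normoxia ABT-263 library 6, with the others at 0 to 0.0664 CPM, and at 0.06076 CPM in normoxia vehicle library 1, with the others at 0. Car1 was at 0.06175 CPM in normoxia ABT-263 library 5, with the others at 0. This Car1 value and the Cldn13 value in normoxia vehicle library 1 are each 1 count, and any count among zeros would be marked. The Cldn13 value in normoxia ABT-263 library 6 is 3 counts, and the Kel value in normoxia vehicle library 1 is 6 counts.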

How the results depend on the processing

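The 9 units that rose in both hypoxia comparisons, and Epor, kept their direction and their side of the threshold under every alternative that tested them. With the compared groups alone Rhd did not pass the filter on low counts in either hypoxia comparison, so that alternative did not test it. Sptb under vehicle (highest adjusted p 0.0488, edgeR) and Ppox under ABT-263 also kept direction and side of the threshold. Of 4351 member values recomputed, 0 called values reversed and 115 uncalled ones changed sign. With 1 library left out, 12 calls were lost and 16 gained, and under other settings 3 were lost and 11 gained. Ank1 under ABT-263 was lost with limma-voom (adjusted p = 0.0915) and with no filter (0.105), and Ank1 under vehicle passed with DESeq2 (0.0461). Urod under vehicle passed with DESeq2 (adjusted p = 0.0446), with library sizes without haemoglobin (0.0279), with the compared groups alone (0.047) and with the main within-group component as covariate (0.000545), an alternative added after seeing the data. Slc25a38 under ABT-263 passed, lower, with DESeq2, limma-voom and the covariate. With that covariate Ppox under vehicle also passed (log2 -0.47, adjusted p = 3.2e-08). The component was computed from these same counts and followed Ppox (r = 0.984) and Urod (r = -0.933) within groups. Fitting it takes out most of their spread by construction, so their adjusted p-values with the covariate are no separate evidence.

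Over all genes, ABT-263 in normoxia called 7 genes, but 30 with DESeq2, 0 with the compared groups alone, 81 with the component covariate, and 1 to 13 with 1 library left out. In hypoxia it called 0, but 6 with DESeq2 and 0 to 1 with 1 left out. Averaged, it called 28, but 94 with DESeq2, 96 with the covariate, and 13 to 40 with 1 left out. The haemoglobin difference in normoxia ran from 0.1707 to 0.2833 points with 1 left out. The cause was not tested. No paired analysis was possible because the labels number no animals and the numbers used only name libraries.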
